A study of Mus musculus with 32 samples.

Results

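The step from 16 to 24 h of a differentiation course was described in TX1072 cells, by comparing the 2 mRNA-seq libraries labelled 24 h with the 2 labelled 16 h, which are 4 of the 32 libraries of the series. They were chosen by their labelled time and cell type, not by a measured value. TX1072 is 1 female mouse embryonic stem cell line, an F1 hybrid of the strains C57BL/6 (B6) and CAST/EiJ (Cast). Doxycycline switches on Xist from its own chromosome on the B6 X in these cells, through an rtTA activator placed in Rosa26. Every library of the course carried these alleles, and the cells had 1 µg/ml doxycycline for 16 h or for 24 h, so that time under Xist induction and time in differentiation cannot be told apart. Before the course the cells were grown in serum with LIF and 2i, a pair of inhibitors of Gsk3 and MEK. The sources used here do not give how differentiation was started. The study asked which properties of X-linked genes set how fast Xist silences them, and what differentiation changes in this. Whether the 2 libraries of a time point were separate cultures is not labelled, and the p-values therefore reflect the spread of these libraries alone, which may be technical.

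Cells kept in 2i and LIF hold the naive state of pluripotency, carried by Nanog, Esrrb, Tfcp2l1 and factors of the Klf family. When the inhibitors are withdrawn, ERK signalling starts, naive factors are lost, and cells pass through a formative state in which Fgf5, Pou3f1, Otx2 and the de novo DNA methyltransferases are made, while Pou5f1 and Sox2 stay on. Xist RNA coats the X chromosome it is made from and silences its genes, so in this hybrid line silencing is read as a fall in the share of a gene's RNA that comes from B6.

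The table of the differentiating course held 15012 genes, 541 of them X-linked, at 0, 8, 16, 24 and 48 h with 2 libraries each. Levels are RPKM, reads scaled to transcript length and library depth, so they can be set side by side between genes. The deposited table has no read counts. A rough estimate from the steps of its low values put the depth at 90900000 and 98300000 reads for the 16 h libraries and at 62200000 and 58900000 reads for the 24 h libraries. Depth therefore moved with the time point, and its part in the results was not tested. The median gene differed between replicates by 0.033 on the log2 scale at 16 h and by 0.032 at 24 h. Changes below are differences in log2(RPKM + 0.5) between 24 and 16 h with their standard error (SE), a scale that understates the change of low genes, and the limma test had a threshold of 0.05 on the p-value adjusted over all genes tested.

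Fgf5, a secreted growth factor that marks cells leaving the naive state, was at 4.56 and 3.85 RPKM in the 16 h libraries and at 20.9 and 20.7 RPKM in the 24 h libraries. The gene lies on the plus strand of chr5:98254184-98277033 (GRCm38, the mm10 build). Its 16 and 24 h libraries did not overlap, and the rise was 2.18 ± 0.066 (SE, adjusted p = 3.5e-09). It had stood at 0.105 and 0.147 RPKM at 0 h and reached 29.2 and 28.5 RPKM at 48 h. The second marker, Dnmt3l, the catalytically inactive partner of the de novo methyltransferases (chr10:78042287-78063622, plus strand), was already at 314 and 305 RPKM at 16 h and at 343 and 344 RPKM at 24 h. Most of its rise came earlier, from a mean of 17.2 RPKM at 0 h and 142 RPKM at 8 h, and the change in this step was 0.15 ± 0.036 (adjusted p = 0.0049). Without the second 16 h library that change was 0.13 and did not pass (adjusted p = 0.056). Both markers had the direction that the label of differentiating cells implies. In these bulk libraries, fewer cells that make a gene and less RNA per cell cannot be told apart.

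**Figure D1:**
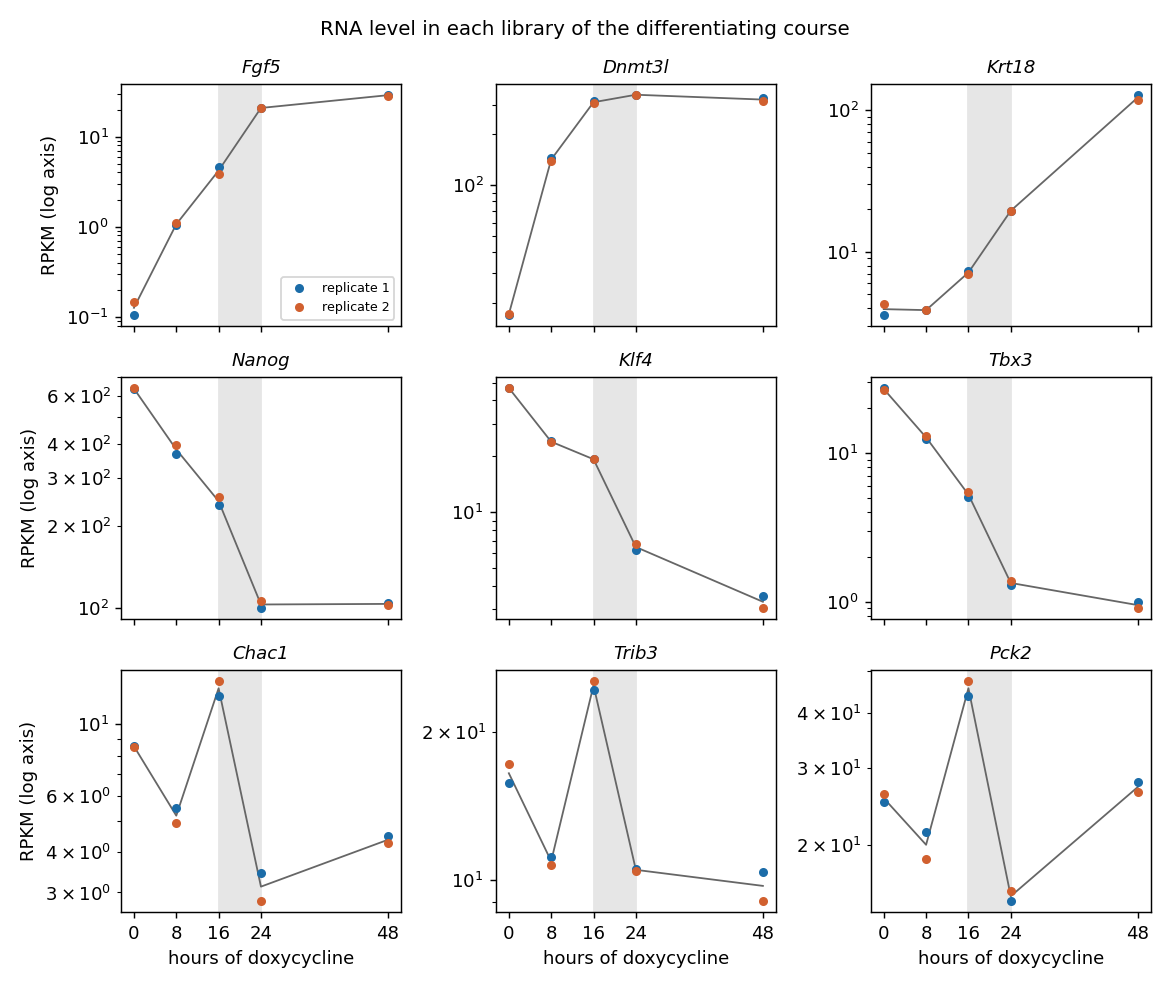
RNA level in RPKM on a log axis against hours of doxycycline in the 10 libraries of the differentiating course, with 1 point per library, a line through the means and the step from 16 to 24 h shaded. Fgf5 and Krt18 climb through the step, Dnmt3l is near its plateau, Nanog, Klf4 and Tbx3 drop, and Chac1, Trib3 and Pck2 stand highest at 16 h and drop by 24 h.

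Many genes changed in the step, most of them by less than 2-fold. Of 12220 genes tested, 2761 (22.6%) were higher and 3491 (28.6%) lower at 24 h, together 51.2%, with a median change of -0.02. Counts of called members in the lists below are to be read beside these shares. In all, 73 genes rose by at least 2-fold (0.597%) and 65 fell by at least 2-fold (0.532%), and with a pseudocount of 0.1 in place of 0.5 these counts were 158 and 121. The 2 libraries of 16 h and the 2 of 24 h did not overlap in 80.3% of genes, so a gap between the groups by itself says little about a gene here.

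Naive pluripotency factors went down almost as a block. Of 16 listed members tested, 15 were lower at 24 h and 0 higher, with a median change of -0.79 against -0.02 over all genes, and 6 of them fell by at least 2-fold. Their summed level was 1175 to 1215 RPKM in the 16 h libraries and 716 to 730 RPKM in the 24 h libraries. The list names what naive cells are known for, and it was drawn up with earlier results of these data known, so it is not independent evidence of the direction.

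Klf4, a zinc finger factor of the naive network (chr4:55527137-55532475, minus strand), had 19.2 and 19.3 RPKM at 16 h and 6.27 and 6.71 RPKM at 24 h. Its fall of -1.50 ± 0.055 (adjusted p = 7.9e-09) followed a level of 46.7 RPKM at 0 h and 24.0 RPKM at 8 h, and 3.29 RPKM was left at 48 h. Klf5, of the same family, went from 53.7 and 56.4 RPKM to 22.1 and 21.3 RPKM (-1.32 ± 0.057, adjusted p = 2.2e-08). Klf2 changed less, from 66.7 and 68.7 RPKM to 42.0 and 41.8 RPKM (-0.69 ± 0.056, adjusted p = 2.0e-06), so the 3 Klf factors did not drop by the same amount.

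Nanog, the homeodomain factor whose level separates naive from departing cells, was at 238 and 254 RPKM at 16 h and at 100 and 106 RPKM at 24 h, a change of -1.25 ± 0.046 (adjusted p = 7.9e-09). Its mean had been 636 RPKM at 0 h and 381 RPKM at 8 h. It stood at 104 RPKM at 48 h, and the change from 24 to 48 h did not pass the threshold (adjusted p = 0.88). Tbx3, a T-box factor downstream of LIF, had the largest change of the list, from 5.03 and 5.46 RPKM to 1.3 and 1.37 RPKM (-1.65 ± 0.052, adjusted p = 4.4e-09). Prdm14, which holds down DNA methyltransferases in naive cells, went from 9.60 and 10.7 RPKM to 4.65 and 4.84 RPKM (-1.02 ± 0.057, adjusted p = 1.0e-07). Tcl1, a co-activator of Akt, went from 31.4 and 33.4 RPKM to 14.9 and 15.3 RPKM (-1.08 ± 0.043, adjusted p = 1.5e-08). In each of these genes the 16 and 24 h libraries did not overlap.

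The remaining naive factors changed by less than 2-fold. Esrrb, an orphan nuclear receptor, changed by -0.74, Tfcp2l1 by -0.83, Zfp42 (Rex1) by -0.83 and Nr5a2 by -0.66. The germ cell and oocyte factor Dppa3 changed by -0.48, the homeobox gene Gbx2 by -0.53, the threonine dehydrogenase gene Tdh by -0.34 and the X-linked nuclear receptor Nr0b1 by -0.27. Fgf4, the growth factor by which these cells start ERK signalling themselves, was the exception, at 92.4 RPKM at 16 h and 93.1 RPKM at 24 h (0.01). All 15 calls held when any of the 10 libraries was left out.

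The core factors shared by naive and primed cells moved far less. Of 10 members tested 4 were higher and 4 lower, where 22.6% and 28.6% of all genes were. Their median was -0.06, with no change of 2-fold. Pou5f1 (Oct4), the defining factor of pluripotency, was at 667 and 667 RPKM at 16 h and at 551 and 562 RPKM at 24 h (-0.26 ± 0.046, adjusted p = 0.00065). Sox2, its partner, had 178 and 180 RPKM and then 151 and 146 RPKM (-0.28 ± 0.044, adjusted p = 0.00031). The RNA-binding protein gene Lin28a, which blocks let-7 maturation, had 101 and 96.1 RPKM and then 112 and 113 RPKM (0.19 ± 0.040, adjusted p = 0.0022). Of the 4 higher calls only that of Lin28a remained without the second 16 h library or without the second 24 h library.

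Formative genes rose on balance while a subset went down. Of 18 members tested, 13 were higher and 4 lower, with a median of 0.24. Pou3f1 (Oct6), a POU factor of the epiblast after implantation, had 9.43 and 8.33 RPKM at 16 h and 18.9 and 18.2 RPKM at 24 h (1.03 ± 0.058, adjusted p = 1.1e-07). Sall2, a zinc finger factor, went from 4.70 and 4.36 RPKM to 8.38 and 8.72 RPKM (0.85 ± 0.057, adjusted p = 4.6e-07). Sox4, an HMG box factor, rose by 0.64 and Lef1, which carries Wnt signals to DNA, by 0.42. Otx2, the homeodomain factor that redirects Oct4 to new enhancers in formative cells, changed only from 43.3 and 42.0 RPKM to 49.8 and 50.7 RPKM (0.23 ± 0.039, adjusted p = 0.00046). Like Dnmt3l it had climbed before 16 h, from a mean of 4.02 RPKM at 0 h to 25.2 RPKM at 8 h.

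The 4 members that went down were the zinc finger genes Zic2 (-0.59) and Zic5 (-0.21), the forkhead gene Foxd3 (-0.28) and the ETS gene Etv5 (-0.33). Zic2 had 25.2 and 26.3 RPKM at 16 h and 17.1 and 16.9 RPKM at 24 h (± 0.041, adjusted p = 6.1e-07). The call of Foxd3 was lost without the second 16 h library (adjusted p = 0.06) or the second 24 h library (adjusted p = 0.092). Of the 13 higher calls, those of Dnmt3l and Grhl2 were lost without the second 16 h library.

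Of 9 tested genes of DNA methylation and demethylation, 6 were higher and 1 lower, with a median of 0.15. The higher ones were Dnmt3a, Dnmt3b and Dnmt3l of de novo methylation, Uhrf1 (0.14) of maintenance, and Tet3 and Tdg (0.14), which act in removal of the mark. The catalytic methyltransferase Dnmt3a went from 30.7 and 30.1 RPKM to 42.5 and 43.5 RPKM (0.49 ± 0.043, adjusted p = 3.4e-06), and Dnmt3b from 157 and 153 RPKM to 210 and 213 RPKM (0.45 ± 0.038, adjusted p = 2.5e-06). Tet2, which oxidises methylcytosine, fell from 9.73 and 11.1 RPKM to 5.45 and 5.81 RPKM (-0.83 ± 0.064, adjusted p = 1.2e-06), while its relative Tet3 rose by 0.30 and Tet1 had a change of -0.03 that did not pass. The maintenance enzyme Dnmt1 had a change of -0.10 that did not pass. Without the second 16 h library, 3 of the 6 higher calls remained. Among 12 tested germline genes that promoter methylation is known to silence, 3 were higher and 3 lower. Over all genes 22.6% and 28.6% were, and no shared direction was seen at 24 h. Tex19.1 rose from 123 and 116 RPKM to 174 and 180 RPKM (0.57 ± 0.039, adjusted p = 5.1e-07) and Stk31 fell by 0.43 on the log2 scale, and both calls held without any 1 library, which was not so for Dazl, Ddx4 and Tex101.

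**Figure D2:**
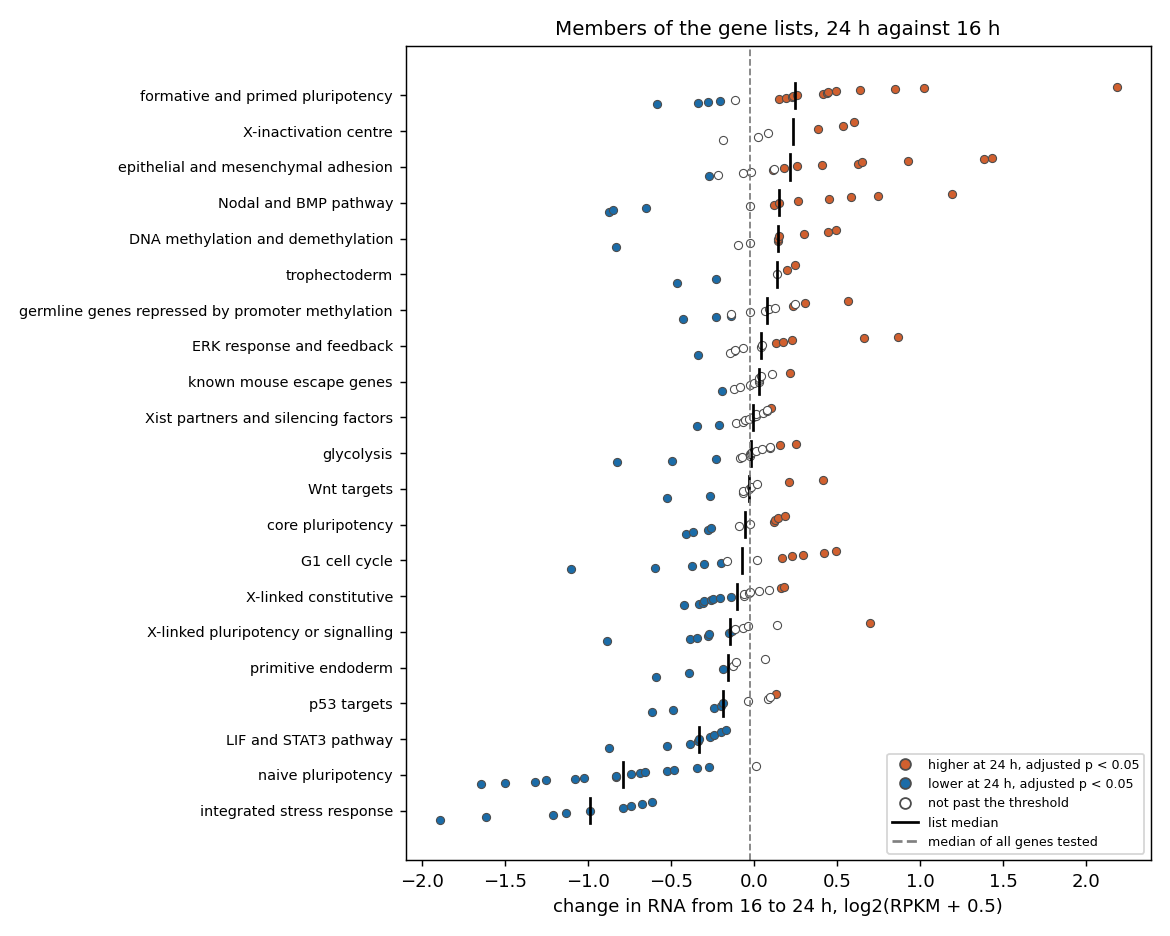
Change from 16 to 24 h in log2(RPKM + 0.5) of each tested member of the gene lists with at least 5 tested members, with 1 point per gene and lists ordered by their median. Black bars are list medians and the dashed line is the median of all genes, -0.02. The stress response list and the naive list lie lowest, with medians of -0.99 and -0.79, and the formative list highest, with 0.24.

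Of 14 tested members of the epithelial and mesenchymal adhesion list, 9 were higher and 1 lower, with a median of 0.22. Of its epithelial members 8 were higher, and Krt19, a keratin of simple epithelia, at 7.82 RPKM at 16 h and 6.65 RPKM at 24 h (-0.22), and the adhesion gene Epcam (0.12) did not pass. Krt18 and Krt8 make the paired keratins of simple epithelia. Krt18 (chr15:102028216-102032026, plus strand) had 7.27 and 7.02 RPKM at 16 h and 19.6 and 19.4 RPKM at 24 h (1.39 ± 0.066, adjusted p = 4.1e-08), after 3.94 RPKM at 0 h and before 123 RPKM at 48 h. Krt8 went from 1.28 and 1.29 RPKM to 4.21 and 4.43 RPKM (1.43 ± 0.079, adjusted p = 1.0e-07). Neither keratin had overlapping libraries.

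Tight junction claudins followed. Cldn7 went from 0.677 and 0.793 RPKM to 1.96 and 1.74 RPKM (0.93 ± 0.067, adjusted p = 7.2e-07), Cldn6 rose by 0.65 and Cldn3 by 0.41. Esrp1, which directs epithelial splicing, rose from 12.8 and 12.5 RPKM to 19.4 and 20.2 RPKM (0.62 ± 0.061, adjusted p = 8.0e-06). Cdh1, the adhesion protein E-cadherin, rose by 0.18. The mesenchymal genes gave no common direction, since fibronectin Fn1 changed by -0.27, N-cadherin Cdh2 by 0.26, and Vim (-0.02) and Zeb1 (-0.06) did not pass. The call of Fn1 was lost without the second 16 h library (adjusted p = 0.05), and that of Cldn4, at 0.11, in 6 of the fits that left out a library, those without any 1 library of 0, 16 or 24 h.

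Signalling genes split within the Nodal and BMP, ERK and Wnt lists, but not within the LIF and STAT3 list. In the Nodal and BMP list 7 of 11 tested members were higher and 3 lower, where 22.6% and 28.6% of all genes were. Skil (SnoN), a repressor of Smad proteins that Nodal signalling itself induces in many cells, had 13.8 and 13.6 RPKM at 16 h and 32.1 and 31.7 RPKM at 24 h (1.19 ± 0.041, adjusted p = 7.0e-09). Id1, an inhibitor of basic helix-loop-helix factors and a BMP target, went from 33.5 and 28.4 RPKM to 50.4 and 42.9 RPKM (0.58 ± 0.097, adjusted p = 0.00091). The ligand gene Bmp4 moved the other way, from 31.1 and 30.3 RPKM to 16.2 and 16.8 RPKM (-0.87 ± 0.048, adjusted p = 9.2e-08). The inhibitory Smad7 fell from 21.9 and 24.3 RPKM to 12.5 and 12.7 RPKM (-0.85 ± 0.051, adjusted p = 2.0e-07). The Nodal antagonists parted, since Lefty1 rose by 0.45 and Lefty2 fell by 0.65 on the log2 scale. The small calls of Nodal (0.12) and Bambi (0.15) were lost without either 16 h library or the first 24 h library, which left 5 of 7, and that of Nodal also without the second 24 h library.

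All 9 tested members of the LIF and STAT3 list were lower, with a median of -0.33, and all 9 calls held without any 1 library. Socs3, the feedback inhibitor that STAT3 induces, had 4.79 and 4.69 RPKM at 16 h and 2.44 and 2.29 RPKM at 24 h (-0.87 ± 0.060, adjusted p = 5.0e-07). It had been at 25.5 RPKM at 0 h. The receptor subunits Lifr (-0.33) and Il6st (-0.34), the kinase Jak1 (-0.24) and Stat3 itself (-0.26) fell by less.

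The ERK list, which had leapt by a median of 1.70 from 0 to 8 h, was nearly level in this step, with a median of 0.04. Of its 12 tested members 5 were higher and 2 lower, where 22.6% and 28.6% of all genes were. Dusp4, a phosphatase that ends ERK signalling in the nucleus, rose from 17.8 and 15.7 RPKM to 27.2 and 26.4 RPKM (0.66 ± 0.058, adjusted p = 3.4e-06). The immediate early gene Egr1 rose from 0.439 and 0.349 RPKM to 1.22 and 1.04 RPKM (0.87 ± 0.077, adjusted p = 3.8e-06). These were the 2 of the 5 higher calls that remained without the second 16 h library. The feedback genes Spry2 (0.04), Spry4 (-0.07) and Etv4 (-0.11) did not pass. Of 9 Wnt targets, 2 were higher, among them Lef1, and 2 lower, Cdx1 (-0.52) and Notum (-0.27). These counts were near the shares over all genes.

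The lowest list median of the step was that of the integrated stress response. In that response, phosphorylation of the initiation factor eIF2 favours translation of the transcription factor Atf4, which raises genes for amino acid supply and stress. All 9 listed members were lower at 24 h, 4 of them by at least 2-fold, with a median of -0.99, and all 9 calls held without any 1 library. Their summed level went from 683 to 700 RPKM in the 16 h libraries to 407 to 417 RPKM in the 24 h libraries. In the step before, from 8 to 16 h, the same list had a median change of 0.72. Both changes rest on the same 2 libraries of 16 h.

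Chac1, which degrades glutathione, had 12.3 and 13.7 RPKM at 16 h and 3.44 and 2.82 RPKM at 24 h (-1.89 ± 0.080, adjusted p = 2.3e-08). At 8 h it had been at 5.48 and 4.93 RPKM, so its 16 h libraries stood above those on either side. Nupr1, a small stress-induced chromatin protein, had 10.7 and 12.2 RPKM and then 3.42 and 3.39 RPKM (-1.61 ± 0.069, adjusted p = 1.9e-08). Trib3, a pseudokinase that feeds back on Atf4, had 24.4 and 25.4 RPKM and then 10.5 and 10.4 RPKM (-1.21 ± 0.061, adjusted p = 5.2e-08). The transcription factor genes of the response moved with them, since Atf3 went from 2.43 and 2.63 RPKM to 0.931 and 0.835 RPKM (-1.13), Ddit3 (CHOP) from 3.09 and 3.80 RPKM to 1.40 and 1.55 RPKM (-0.99), and Atf4 from 280 and 284 RPKM to 179 and 174 RPKM (-0.68 ± 0.041, adjusted p = 1.8e-07). The enzymes of asparagine and serine synthesis, Asns (-0.79) and Psat1 (-0.62), and Sesn2 (-0.74), a brake on mTORC1, completed the list. At 8 h Trib3 (11.1 and 10.7 RPKM), Ddit3 (1.52 and 1.61 RPKM) and Atf4 (180.5 and 180.8 RPKM) had been near their 24 h levels. Atf3 had been above its own, at 1.57 and 1.79 RPKM, and Nupr1 below, at 2.01 and 2.03 RPKM. By 48 h Nupr1 (12.1 and 12.8 RPKM) and Ddit3 (5.13 and 4.17 RPKM) were high again, unlike Chac1 (4.49 and 4.27 RPKM) and Trib3 (10.4 and 9.03 RPKM). Asns differed from the others in its course, with 338 RPKM at 0 h, 182 RPKM at 8 h and 156 RPKM at 16 h.

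Genes of amino acid metabolism outside that list were also among the 12 largest falls named by rule. Pck2, the mitochondrial enzyme that makes phosphoenolpyruvate, had 43.8 and 47.4 RPKM at 16 h and 14.9 and 15.7 RPKM at 24 h (-1.55 ± 0.063, adjusted p = 1.6e-08). Aldh18a1, the first enzyme of proline synthesis from glutamate, went from 42.0 and 44.1 RPKM to 17.3 and 16.9 RPKM (-1.31 ± 0.043, adjusted p = 5.3e-09). Gpt2, a mitochondrial alanine aminotransferase, went from 23.1 and 24.8 RPKM to 9.65 and 9.30 RPKM (-1.29 ± 0.046, adjusted p = 7.2e-09). All 3 stood higher again at 48 h, at 27.1, 27.3 and 21.8 RPKM.

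Promoters of these genes were searched for the amino acid response element TGATGNAA, the site known for Atf4 and its partners, on both strands of RefSeq windows from 250 bases before to 50 bases after the gene's start. Of 12220 genes tested, 9026 had a window. The element was in 2.12% of all windows, in 5 of the 9 stress response genes (55.6%), in 9 of 51 genes that fell by at least 2-fold (17.6%) and in 1 of 41 that rose by at least 2-fold (2.44%). Chac1, Nupr1, Atf3 and Trib3 were counted in both of the former sets, which are thus not separate observations. Among all genes called lower it was in 68 of 2605 windows (2.61%), and among all called higher in 44 of 2058 (2.14%), both near the share of all windows. The element was chosen after the changes were seen, and a match is a description of the letters, not a bound site. The stretches below are shown because they carry the element before the start of 6 genes that fell, the stress list members Chac1, Nupr1, Atf3 and Asns and the genes Pck2 and Herpud1. Asns fell by less than 2-fold, and Serpinb6c, Trib3, Pycr1 and Serpinf1 also fell by at least 2-fold with the element in their window and are not printed. The stretches are read 5′ to 3′ on the gene's strand from the RefSeq GRCm38.p6 windows, which hold the B6 sequence, with the element in capitals. Its first base lies at -193 from the start in Chac1 (chr2:119351023-119351082, plus strand), -110 in Nupr1 (chr7:126625547-126625606, minus strand), -110 in Atf3 (chr1:191183410-191183469, minus strand), -23 in Asns (chr6:7693199-7693258, minus strand), -103 in Pck2 (chr14:55540137-55540196, plus strand) and -112 in Herpud1 (chr8:94386291-94386350, plus strand).
Chac1: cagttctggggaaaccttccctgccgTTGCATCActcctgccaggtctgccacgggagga
Nupr1: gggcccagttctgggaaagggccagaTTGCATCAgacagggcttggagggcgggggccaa
Atf3: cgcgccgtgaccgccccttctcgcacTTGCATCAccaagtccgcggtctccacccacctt
Asns: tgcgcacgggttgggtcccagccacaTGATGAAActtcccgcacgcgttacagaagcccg
Pck2: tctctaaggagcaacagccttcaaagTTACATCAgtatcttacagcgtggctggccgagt
Herpud1: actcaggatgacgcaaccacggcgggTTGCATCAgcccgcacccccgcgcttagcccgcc

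Chac1, Nupr1, Atf3 and Herpud1 carried the same 8 letters, on the strand opposite to the motif as written, while Asns and Pck2 carried other forms of it. The CCAAT motif was in 6 of the 9 stress response windows (66.7%) and in 39.1% of all windows. The ETS motif CCGGAAG was in 18.6% of all windows, in 1 of the 51 windows of genes that fell by at least 2-fold (1.96%) and in 2 of the 41 of genes that rose as much (4.88%). The median number of CpG in a window was 21 over all genes, 11 in those that fell by at least 2-fold and 15 in those that rose.

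The rest of the 12 largest falls came from several classes of gene. Cited4, a co-activator of the CBP and p300 acetyltransferases (chr4:120666563-120667820, plus strand), had 18.8 and 20.3 RPKM at 16 h and 5.19 and 4.94 RPKM at 24 h (-1.85 ± 0.047, adjusted p = 1.0e-09), and 1.23 RPKM at 48 h. H1f0, a linker histone linked to cell cycle exit, went from 16.3 and 18.6 RPKM to 6.17 and 6.11 RPKM (-1.43). Trh, the gene of thyrotropin-releasing hormone, had peaked at 168 RPKM at 8 h and went from 116 and 118 RPKM to 48.8 and 48.0 RPKM (-1.27). Serpinb6c, a serpin gene, changed by -1.25, and Herpud1, which acts in degradation of proteins of the endoplasmic reticulum, by -1.12. None of these genes had overlapping libraries, and all passed the test.

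The 12 largest rises named by rule, after Fgf5, held secreted, cytoskeletal and signalling genes. Gadd45g, a growth arrest and DNA damage gene of the Gadd45 family (chr13:51846675-51848475, plus strand), had 5.92 and 4.91 RPKM at 16 h and 20.9 and 21.5 RPKM at 24 h (1.88 ± 0.068, adjusted p = 7.2e-09). It stood under 1 RPKM before, at 0.462 RPKM at 0 h and 0.632 RPKM at 8 h, and was lower at 48 h, at 13.9 RPKM. Cthrc1, a secreted collagen triple helix repeat protein, went from 4.54 and 4.38 RPKM to 14.9 and 13.4 RPKM (1.56 ± 0.067, adjusted p = 1.9e-08). Vrtn, known in pigs for setting the number of vertebrae, had 7.47 and 6.65 RPKM and then 21.6 and 21.5 RPKM (1.55 ± 0.055, adjusted p = 7.2e-09). Vrtn stood highest at 24 h in the course, with 6.33 RPKM at 48 h.

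H19, a non-coding RNA known to be imprinted, went from 26 and 22.5 RPKM to 59.0 and 57.6 RPKM (1.25 ± 0.073, adjusted p = 4.0e-07). Its B6 share was 58.3% and 57.0% at 16 h and 61.0% and 60.6% at 24 h, so RNA of both alleles was present in these libraries. Cbr3, a carbonyl reductase, rose by 1.18, Myl9, a regulatory light chain of myosin, by 1.16, and Gramd3, a gene with a lipid-binding GRAM domain, by 1.15. Car4, a membrane carbonic anhydrase, rose by 1.10 and Arl4d, a small GTPase of the ARF family, by 1.07. A pair of genes under the level limit of that rule were singled out after their values were seen. Enpp2 (autotaxin), which makes lysophosphatidic acid, went from 2.28 and 2.04 RPKM to 13.0 and 13.0 RPKM (2.35 ± 0.053, adjusted p = 5.7e-10). Wnt8a, a Wnt ligand, went from 1.06 and 0.809 RPKM to 5.71 and 5.95 RPKM (2.15 ± 0.072, adjusted p = 6.0e-09).

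Cell cycle and energy genes changed one by one more than as groups. Of 12 genes of G1 control, 5 were higher and 5 lower, where 22.6% and 28.6% of all genes were, with a median of -0.07. Ccnd2 (cyclin D2) fell from 3.09 and 3.25 RPKM to 1.20 and 1.22 RPKM (-1.10 ± 0.071, adjusted p = 3.1e-07), the inhibitor Cdkn1b (p27) by 0.59 on the log2 scale, and Ccne1 (cyclin E1) rose from 142 and 132 RPKM to 194 and 193 RPKM (0.50 ± 0.037, adjusted p = 1.0e-06). Of the 5 higher calls, 3 remained without the second 16 h library. In glycolysis 10 of 15 tested genes did not pass, 2 were higher and 3 lower. The glucose transporter Slc2a3 fell from 101 and 104 RPKM to 57.5 and 57.9 RPKM (-0.82 ± 0.035, adjusted p = 1.9e-08), whereas Slc2a1 had a change of 0.05 that did not pass. The phosphofructokinase Pfkp changed by -0.49. Both higher calls of that list, Ldha (0.16) and Slc16a3 (0.25), were lost without the second 16 h library or the first 24 h library. Of 9 p53 targets, 5 were lower and 1 higher, where 28.6% and 22.6% of all genes were, led by the cell death gene Bbc3 (Puma), which went from 10.3 and 10.7 RPKM to 6.66 and 6.75 RPKM (-0.61). The higher call, of Mdm2, was lost without the second 16 h library or the first 24 h library, and that of Eda2r without the second 16 h or the second 24 h library.

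Markers of other lineages were sparse at both times. Of the primitive streak list 3 of 10 genes passed the filter of a mean of 0.5 RPKM over the 10 libraries, and their table entries summed to 10.7 to 11.6 RPKM at 16 h and 13.4 to 13.8 RPKM at 24 h. Eomes (0.40) was at 8.50 RPKM at 16 h and 11.4 RPKM at 24 h, and Evx1 (-0.43) at 1.39 and 0.897 RPKM. Of the neuroectoderm list 2 of 10 passed the filter, and the sum was 11.9 to 12.3 and 14.2 to 14.2 RPKM, mostly Sox11 (0.39) and Nes. The trophectoderm list summed to 20.7 to 21.4 and 19 to 19.8 RPKM, and the primitive endoderm list to 144.5 to 146 and 132 to 134 RPKM, of which Sparc, a gene also made by pluripotent cells, was up to 128 RPKM. The fibroblast list summed to 39.5 to 40.4 and 38.2 to 39.9 RPKM, of which Thy1 was up to 39.3 RPKM, and Dcn, which was under the filter and not tested, had a mean of 0.173 RPKM at 16 h and 1.36 RPKM at 24 h. The 2-cell-like list summed to at most 1.71 RPKM. Of the defining genes, Gata6 and Col3a1 had no entry, Sox1, Pax6, Gata4, Sox17, Elf5 and Col1a2 were under the filter, and Cdx2 was at a mean of 0.0714 RPKM at 16 h and 0.154 RPKM at 24 h. None of the listed genes in the table was at 0 in all 4 libraries.

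The step was then set against the earlier ones. The step from 0 to 8 h lasts as long and shares no library with it, and 51.9% of genes changed by different amounts in the 2 steps (3325 with the more positive change and 3019 with the more negative change from 16 to 24 h). Of the genes higher from 16 to 24 h, 32.1% had risen and 26.6% had fallen from 0 to 8 h. Of those lower, 41.9% had fallen and 23.1% had risen. Over all genes 23.4% had risen and 32.4% had fallen in that first step.

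The naive list changed by a median of -0.42 from 0 to 8 h, -0.27 from 8 to 16 h, -0.79 from 16 to 24 h and -0.66 from 24 to 48 h. From 16 to 24 h, 10 of its 16 members had a more negative change than from 0 to 8 h (24.7% of all genes). A more positive one was found in 3 (27.2% of all genes). Nanog was among the 10 (difference of steps -0.51, adjusted p = 4.8e-05), with Klf4 (-0.55, adjusted p = 0.00011) and Tbx3 (-0.59, adjusted p = 4.1e-05). The other 3 fell more in the first step, Tfcp2l1 from 140 to 38.7 RPKM (difference 1.01, adjusted p = 7.3e-06), Prdm14 from 51.1 to 15.1 RPKM (0.70, adjusted p = 2.2e-05) and Dppa3 from 104.5 to 61.7 RPKM (0.28, adjusted p = 0.023). Not every member fell in the first step, since Gbx2, Nr0b1, Tcl1 and Zfp42 rose from 0 to 8 h. Gbx2 went from 3.87 and 3.71 RPKM to 26.1 and 29.4 RPKM, and Nr0b1 from 22.1 and 22.7 RPKM to 52.4 and 53.5 RPKM. At 24 h Gbx2 (19.6 and 18.8 RPKM) and Nr0b1 (55.1 and 53.2 RPKM) were still above their 0 h levels. The formative list was the reverse, with medians of 1.02, 0.31, 0.24 and 0.02. Within it Fgf5 rose by more in the later step (difference 0.86, adjusted p = 1.3e-05) and Dnmt3l by less (-2.86, adjusted p = 8.5e-12). Krt8 (2.47, adjusted p = 1.0e-08) and Krt18 (1.40, adjusted p = 2.5e-07) had the more positive change in the later step, since from 0 to 8 h Krt8 changed by -1.04 and Krt18 by -0.02, which did not pass.

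Against the step from 8 to 16 h, 48.3% of genes changed by a different amount, 2200 more positively and 3703 more negatively. The 2 steps share the 16 h libraries, so an error in those moves them in opposite directions. Without the second 16 h library the counts were 1229 and 2354, and without the first the count of the more positive was 1424. The largest differences were again in amino acid and stress genes, with Pck2 at -2.72 (adjusted p = 6.0e-08), Gpt2 at -2.44 (adjusted p = 1.7e-08) and Trib3 at -2.37 (adjusted p = 6.7e-08). In the other direction stood Hspa5 (BiP), the main chaperone of the endoplasmic reticulum, which went from 187 RPKM at 8 h to 146 and 139 RPKM at 16 h and 248 and 252 RPKM at 24 h (difference 1.19, adjusted p = 1.9e-07). Hmgcs1, an early enzyme of cholesterol synthesis, went from 47.2 RPKM to 36.5 and 36.0 RPKM and then 63.0 and 63.2 RPKM (difference 1.17, adjusted p = 2.4e-07).

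**Figure D3:**
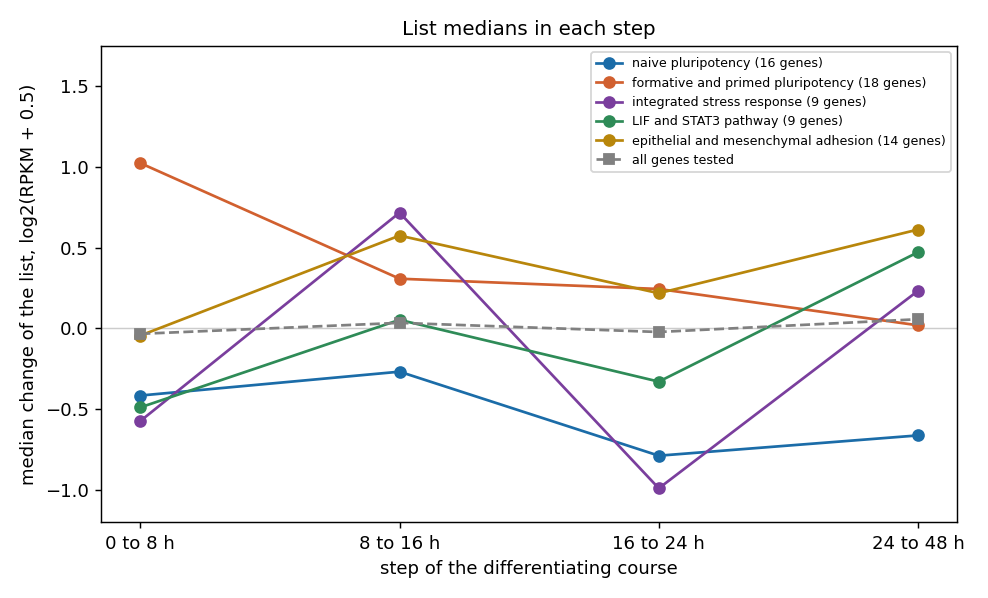
Median change in log2(RPKM + 0.5) of 5 gene lists in each step of the differentiating course, with all genes tested as grey squares. The stress response list turns from 0.72 in the step from 8 to 16 h to -0.99 from 16 to 24 h, and these neighbouring steps share the 16 h libraries. The naive list has its lowest value, -0.79, from 16 to 24 h.

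On the X chromosome the B6 share of most genes was lower again at 24 h. Over 285 X-linked genes other than Xist, the median B6 share was 31.3% and 31.2% in the 16 h libraries and 26.2% and 26.5% in the 24 h libraries. That is 31.2% ± 0.0426 (SD, n = 2) against 26.3% ± 0.190 (SD, n = 2), a gap many times the spread between replicates. The autosomal median stayed at 50.9% at both times. The median had been 49.9% at 0 h and 42.0% at 8 h, and it was 25.2% at 48 h. As log2 odds of the B6 share, the median change was -0.40 from 0 to 8 h, -0.65 from 8 to 16 h, -0.30 from 16 to 24 h and -0.11 from 24 to 48 h. Of the 285 genes, 256 had a lower share at 24 h. In 203 both 24 h libraries were below both 16 h libraries, and in 8 both were above, where 23.2% of all genes had the former pattern and 44.9% either.

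**Figure D4:**
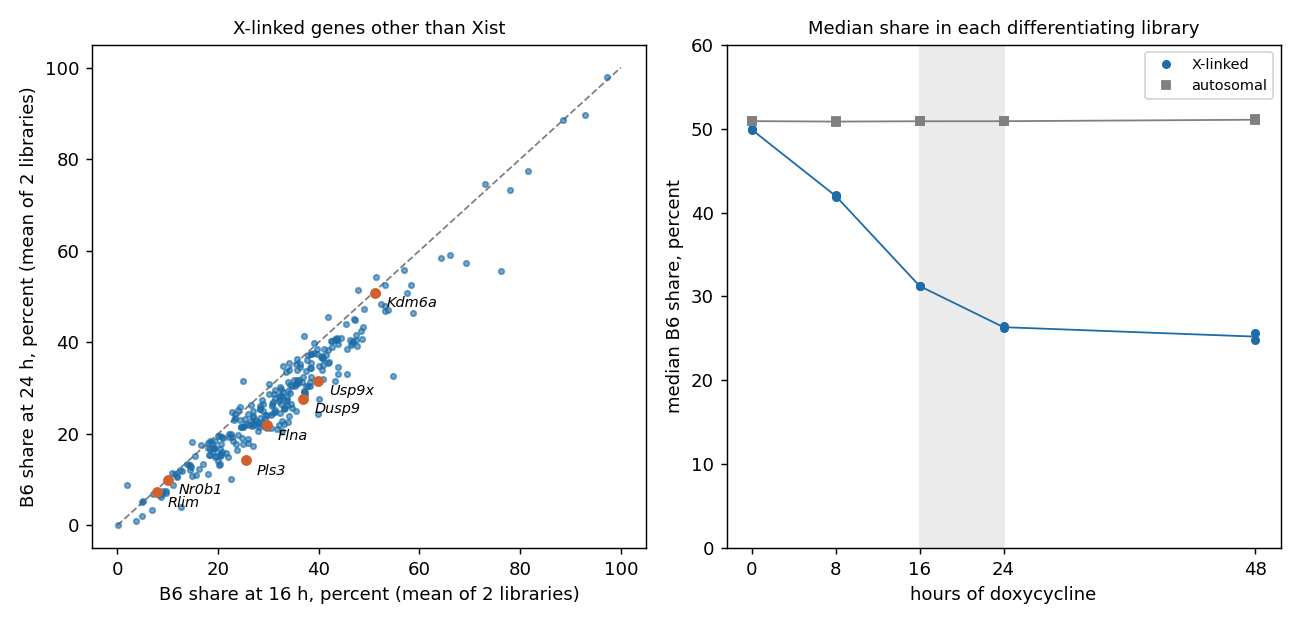
Left, mean B6 share in percent at 24 h against 16 h for 285 X-linked genes, with the dashed line marking no change and named genes in orange. Most points lie below the line. Right, median B6 share in each library against hours of doxycycline, where the X-linked median goes from 31.2% to 26.3% in the shaded step and the autosomal median stays at 50.9%.

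Xist itself, on the minus strand of chrX:103460373-103483233, was at 45.2 and 58.9 RPKM at 16 h and 42.4 and 48.6 RPKM at 24 h. The groups overlapped, and the change of -0.18 ± 0.11 did not pass (adjusted p = 0.21). Without the first 16 h library it was -0.37 and passed (adjusted p = 0.0036). Its B6 share was 99.9% in both 16 h libraries and 99.3% and 99.4% in the 24 h libraries. Of the 13 listed partners of Xist and silencing factors, 10 did not pass, Spen, which recruits histone deacetylase activity, was lower (-0.34, adjusted p = 0.0038), as was Jarid2 (-0.21, adjusted p = 0.00019), and Lbr was higher (0.10), a call lost without the first 16 h library or either 24 h library. In the X-inactivation centre, 3 of 6 tested genes were higher, where 22.6% of all genes were. The ubiquitin ligase gene Rlim, an activator of Xist, rose by 0.39 (adjusted p = 0.00025), the non-coding RNA gene Ftx by 0.60 and Tsx by 0.53. Ftx and Tsx were at low levels, Ftx at a mean of 0.171 RPKM at 16 h and 0.518 RPKM at 24 h, and Tsx at 1.03 and 1.71 RPKM.

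Single X-linked genes were near the limit of the allelic test. It called 7 X-linked genes lower and 0 higher, where 0.176% of all genes were called lower, 0.088% higher and 0.264% in either direction. At an unadjusted p under 0.05 in the same limma fit, 146 were lower and 3 higher. Pls3, an actin bundling protein (chrX:75785653-75875182, minus strand), had a B6 share of 25.5% and 25.5% at 16 h and of 14.7% and 13.7% at 24 h, a change in log2 odds of -1.0 ± 0.092. Gpc3, a glypican of the cell surface, went from 31.3% and 35% to 22.3% and 21.9% (-0.78 ± 0.091). Dusp9, a phosphatase of ERK that X dosage is known to act through in female stem cells, went from 36.4% and 37.5% to 27.1% and 28.1% (-0.60 ± 0.062).

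The large actin crosslinker Flna went from 29.6% and 29.8% to 21.6% and 22.1% (-0.58 ± 0.067). Usp9x, a deubiquitinase on the list of known escape genes, went from 39.5% and 40.4% to 30.8% and 32.4% (-0.52 ± 0.064), and Jade3, a subunit of histone acetyltransferase complexes, from 48.4% and 48.9% to 40.0% and 41.5% (-0.45 ± 0.054). The seventh was the gene model Gm18336 (-0.74). All 7 had the adjusted p of 0.049, just under the threshold, and 0 of them passed when any 1 of the 10 libraries was left out. Their 16 and 24 h shares did not overlap in any of them.

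Of the known escape genes, 9 had a share in every library, and all 9 changes were below 0, with a median of -0.23 and 1 call, that of Usp9x. Over the 285 X-linked genes the median was -0.30, with 256 changes below 0. Some X-linked genes, escape genes among them, had changes in share near 0. Kdm6a, a histone demethylase known to escape silencing, had 51.4% and 51.1% at 16 h and 51.0% and 50.6% at 24 h (-0.02 ± 0.051), and 52.0% at 0 h. Ftsj1, a transfer RNA methyltransferase, had 51.0% and 52.0% and then 51.7% and 49.9% (-0.04 ± 0.065). At the other end Nr0b1 had 10.3% and 9.70% and then 10.2% and 9.74%, and Rlim 7.72% and 7.96% and then 6.91% and 7.58% (-0.11 ± 0.096). Both had made their fall before 16 h, from 50.6% and 49.7% at 0 h. Of the genes named for the smallest changes, Haus7 had mean shares of 39.1% at 16 h and 39.8% at 24 h. Eras had 35.7% and 36.3%, and Gpc4, Pim2 and Mmgt1 also had intermediate shares. The escape gene Eif2s3x had 11.4% and 11.3%, and 14.2% in both 0 h libraries. A change near 0 was thus seen in genes that had not been silenced, at intermediate shares and where the B6 share was already low. A p above the threshold does not show that a share did not change.

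The step was read along the chromosome and by the B6 share at 8 h. By that share, the 10 genes under 20% had a median of 6.42% at 16 h and 6.20% at 24 h. The 51 genes from 20 to 35% went from 16.6% to 15.2%, and the 169 genes from 35 to 50% from 32.2% to 26.4%. The 55 genes at 50% or more went from 47.7% to 41.5%. At 0 h the medians of these groups, in the same order, were 18.8%, 45.8%, 49.2% and 58.4%. The group under 20% was thus already low before doxycycline, and the groups do not measure silencing alone. By distance from the start of Xist, 52 genes within 10 Mb went from 25.4% to 19.5%, 108 genes at 25 to 50 Mb from 29.5% to 24.9%, and 109 genes beyond 50 Mb from 36.2% to 34.0%. Only 4 genes lay between 10 and 25 Mb, and 12 had no position. These are medians over genes that share 4 libraries, given without a test.

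A lower share can come from less B6 RNA or from more Cast RNA. The product of RPKM and share gives an estimate of each allele's level. For the B6 level 127 of 285 X-linked genes were lower and 12 higher, with a median change of -0.20, where 19.3% of all genes were lower, 13.6% higher and 32.9% either. For the Cast level 45 were lower and 42 higher, with a median of -0.02, where 18% of all genes were lower, 13.8% higher and 31.7% either. Without the second 16 h library there were 81 genes with a lower B6 level, and the Cast count of 45 was 18 to 28 without any 1 of the 16 or 24 h libraries. In 243 of 285 genes the B6 change was below the Cast change. Both levels were down in 147 genes, the B6 level was down and the Cast level up in 85, both were up in 46 and the reverse held in 7.

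Single genes show both routes. In Usp9x the B6 level went from 5.57 to 4.04 RPKM (-0.42, adjusted p = 0.0015) while the Cast level was 8.38 and then 8.75 RPKM (0.06, adjusted p = 0.55). In Hprt, the purine salvage enzyme, the B6 level went from 24.2 to 17.2 RPKM (-0.48, adjusted p = 0.00012) and the Cast level was 26.6 and then 26.8 RPKM (0.01, adjusted p = 0.90). In Flna the B6 level was 5.38 and then 4.88 RPKM (-0.13, adjusted p = 0.22) while the Cast level rose from 12.7 to 17.5 RPKM (0.44, adjusted p = 0.00056). In Klhl13, a ubiquitin ligase adaptor, both rose, B6 from 13.6 to 19.3 RPKM (0.49) and Cast from 20.4 to 36.1 RPKM (0.81).

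**Figure D5:**
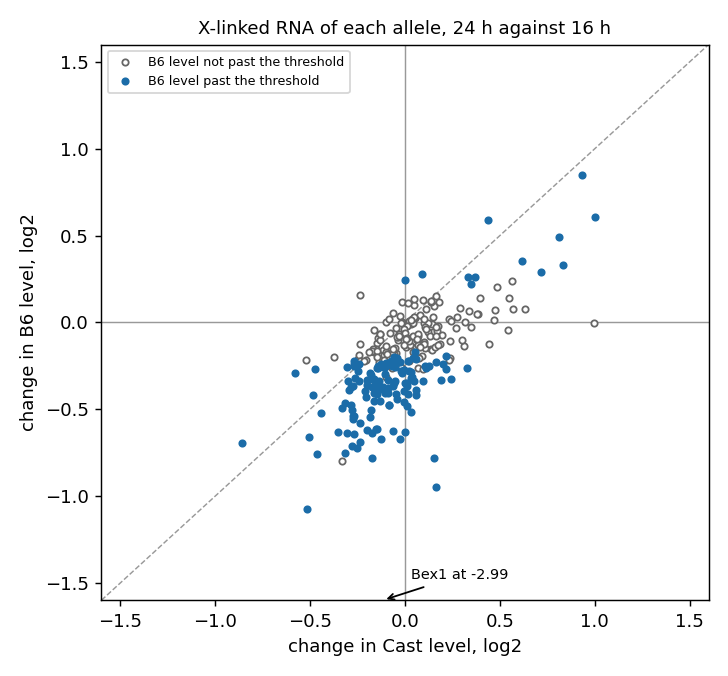
Change in B6 level against change in Cast level from 16 to 24 h on the log2 scale for 285 X-linked genes, filled where the B6 level passed the threshold. The dashed line marks equal change, and 243 genes lie below it. Bex1, at a B6 change of -2.99, lies under the frame and is marked by an arrow.

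Total RNA of X-linked genes followed, with 133 of 356 tested genes lower (37.4%) and 50 higher, and a median of -0.08, where 28.3% of autosomal genes were lower. The list of X-linked pluripotency and signalling genes held both ends. Klhl13 rose from 34.4 and 33.5 RPKM to 56.5 and 54.3 RPKM (0.70 ± 0.054, adjusted p = 1.2e-06), and the glypican gene Gpc4 fell from 7.55 and 7.98 RPKM to 4.06 and 3.90 RPKM (-0.88 ± 0.061, adjusted p = 5.6e-07) although its B6 share was 23.3% and 22.8% and then 23.7% and 22.3%. Of 12 members 7 were lower, and 4 of these calls remained without the second 16 h library. Of 16 constitutive X-linked genes 8 were lower and 2 higher, among them Prps1 (-0.42), Pdha1 (-0.33) and Rps4x (-0.26), which all held without any 1 library. The 2 higher calls, of G6pdx and Hcfc1, were both lost without the first 24 h library, and the lower calls of Atrx and Ogt without the second 16 h or the second 24 h library. Of 11 known escape genes tested 9 did not pass.

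Values of undifferentiated cells from the same line, deposited in another table and so set beside these without a test, covered 268 of the X-linked genes. Their median B6 share was 40.7% ± 4.52 (SD, n = 2) at 12 h and 32.3% ± 6.27 (SD, n = 2) at 24 h of doxycycline. Over the same genes the differentiating cells had 31.6% ± 0.188 (SD, n = 2) at 16 h and 26.7% ± 0.116 (SD, n = 2) at 24 h. The replicates of the undifferentiated course lay much further apart.

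The pace of allelic change was compared between steps. Against the step from 0 to 8 h, 1.7% of genes had a different change in share, 0.978% the more positive one and 0.724% the more negative one from 16 to 24 h. Of X-linked genes 17 had the more positive change from 16 to 24 h and 1 the more negative. When any 1 library was left out the former count was 2 to 10, lowest without the first 16 h library, and the latter 0. Rlim, on the minus strand of chrX:103957163-103981296, led the X-linked genes, with a difference of 2.63 ± 0.14 (adjusted p = 0.0021), since its share had gone from 49.7% to 12.1% in the first step. Against the step from 8 to 16 h limma called 0 genes, with 509 more positive and 444 more negative at an unadjusted p under 0.05, of which 98 and 3 were X-linked. The median X-linked difference between these steps was 0.34.

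Outside the X chromosome 20 of 9940 genes changed their B6 share, 9 up and 11 down, and these calls were as fragile as the X-linked ones, with at most 1 higher and 2 lower left when any 1 library was left out. Optn, an autophagy receptor, went from 37.9% and 32.2% to 61.3% and 59.9% (1.48 ± 0.12, adjusted p = 0.032), with a B6 level that rose from 1.83 to 4.55 RPKM and a Cast level of 3.41 and then 2.96 RPKM. Id1 went from 24.8% and 21.6% to 42.0% and 37.1% (1.09 ± 0.13, adjusted p = 0.049), so that its gain in RNA was larger on B6, from 7.23 to 18.5 RPKM, than on Cast, from 23.8 to 28.1 RPKM.

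Vim (vimentin), whose total RNA did not pass in the step, went from 65.9% and 66.9% to 56.2% and 57.6% (-0.57 ± 0.068, adjusted p = 0.049). Cdc42ep4, an effector of the GTPase Cdc42, went from 79.7% and 78.3% to 67.2% and 69.2% (-0.79 ± 0.080, adjusted p = 0.049), after a share of 51.7% at 0 h and 85.8% at 8 h. Among the other named genes Fetub, Slc1a3 and Nptx2 had higher shares by 0.90, 0.63 and 0.54, and Med21, Epb41l4a and Sesn3 had changes of -0.77, -0.57 and -0.57. In Fetub and Slc1a3 the Cast level changed (-0.79 and -0.61) while the change of the B6 level did not pass (0.10 and -0.03).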

How the data were processed

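The deposited table of the differentiating course gives, per gene and library, RPKM and the fraction of allele-assigned RNA from B6, both made by the authors. Per the submitters' processing notes the tools were HTSeq 0.6.1, TopHat2 2.1.0, SAMtools, cutadapt 1.8.2 and Bowtie 1.0.0, and the build mm10. The role of each tool and how alleles were assigned are not given in the sources used here. Libraries were stranded mRNA-seq, per the labels' protocols. Without counts, shares carry no counting interval. Depth was estimated from low RPKM values and exon lengths, where 88.6 to 95.7% of the values checked gave whole reads within 0.1.

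All 10 libraries were fitted with limma 3.58.1 (R 4.3.3, trend, robust), 2 per time point. Levels entered as log2(RPKM + 0.5), where the mean RPKM over the libraries reached 0.5 for total RNA and 1 for shares and alleles. Shares used log2 odds with a pseudocount of 0.01, for genes with a share in every library. Tests are two-sided, adjusted by Benjamini-Hochberg over all genes of the fit. The fit was tested on simulated data.

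Named by rule were the 12 largest changes in each direction whose mean log2 level reached 3 and whose libraries did not overlap, list members past the threshold, the X-linked genes with the largest falls and smallest changes in share, and the 5 largest autosomal share changes and step differences in each direction. Share genes needed a mean RPKM of at least 5 and shares of 5 to 95%. Genes outside the rule were chosen after their values were seen. The members, lists and rules were chosen with earlier results of these data known. Positions and promoter windows are from RefSeq GRCm38.p6, of which the first listed window was used for the 1864 genes with several. Pseudocounts, filters, scalings, smaller fits and left-out libraries were tried as alternatives. Nascent RNA data were not used here.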

Additional observations from a re-analysis of the deposited data

Results flagged for a closer look

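Results in which the step from 16 to 24 h differed from another step are listed here by the test of that difference in limma, with a positive value where the later step had the more positive change. No explanation was weighed.

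Against the step from 0 to 8 h, which shares no library, the most negative differences in total RNA were Xist at -6.22, which doxycycline had induced in that first step, the ERK feedback gene Spry4 at -5.55, the ETS gene Etv4 at -5.36, the gene model Gm42808 at -4.19 and the ectoenzyme gene Enpp3 at -4.17. The most positive were 2310043M15Rik at 2.54, the Nodal antagonist gene Lefty1 at 2.43, the epithelial ETS gene Elf3 at 1.89, the kinase gene Sgk1 at 1.81 and Gadd45g at 1.65.

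In B6 share, on the log2 odds scale, the most negative differences were Cdc42ep4 at -3.21, Gramd3 at -2.68, Gm16233 at -2.14, Lrrn4 at -2.04 and Ndrg1 at -1.77. The most positive were Prorsd1 at 3.38, Cyp2b23 at 3.27, Rlim at 2.63, Trh at 1.91 and 2310043M15Rik at 1.6.

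Against the step from 8 to 16 h, which shares the 16 h libraries, the most negative differences in total RNA were Pck2 at -2.72, Gpt2 at -2.44, Trib3 at -2.37, the mTORC1 inhibitor gene Ddit4 at -2.27 and the lactate transporter gene Slc16a3 at -2.23. The most positive were Snord100 at 1.26, the BMP target Id3 at 1.22, Hspa5 at 1.19, Hmgcs1 at 1.17 and Snord53 at 1.16. The call of Snord100 was lost without the first 16 h library, and that of Snord53 without the first 16 h library or either 24 h library.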

How the results depend on the processing

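No paired analysis was possible because the titles carry library numbers, not replicate numbers, and the replicate numbers were given in accession order. Of 2350 single-gene tests that left out 1 library, 2008 kept direction and call, 341 lost the call and 1 gained it. Of 1808 under other settings, 1725 kept both and 83 lost the call. The direction reversed in 0 of them. Where values below moved, the cause was not tested unless given.

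With any 1 library left out, higher and lower genes in total RNA numbered 2024 to 2906 and 2495 to 3627, those of at least 2-fold 62 to 90 and 57 to 77. Differences from the step of 0 to 8 h numbered 2835 to 3448 and 2614 to 3118, and from that of 8 to 16 h 1229 to 2380 and 2354 to 3819. For B6 share, X-linked genes higher and lower numbered 0 and 0 and autosomal ones 0 to 1 and 0 to 2, with an X-linked median of -0.31 to -0.28. For share differences from 0 to 8 h, X-linked counts were 2 to 10 and 0, autosomal 3 to 32 and 6 to 39, and the median 0.07 to 0.12. Against 8 to 16 h all counts were 0, with a median of 0.31 to 0.35. B6 levels gave 8 to 12 higher and 81 to 129 lower (median -0.21 to -0.18), Cast levels 28 to 43 and 18 to 48 (median -0.02 to -0.01).

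A pseudocount of 0.1 gave 158 higher and 121 lower genes of at least 2-fold and a median B6 level change of -0.29, and a pseudocount of 1 gave 43 and 38. A minimum of 5 RPKM, which tests fewer genes, gave 1604 higher and 2031 lower genes, 21 and 30 of at least 2-fold, 1880 and 1747 differences from 0 to 8 h, and 1449 and 2039 from 8 to 16 h. For shares it gave 28 X-linked genes lower, 25 autosomal higher and 33 lower. Against 0 to 8 h it gave 11 X-linked higher, 2 lower and a reversed median of -0.02, and against 8 to 16 h 3 X-linked higher, 2 autosomal lower and a median of 0.24. A share pseudocount of 0.001 gave 0 X-linked genes lower, 1 autosomal higher and 1 lower, and X-linked medians of -0.31, 0.08 and 0.35 for the step and its differences from 0 to 8 h and 8 to 16 h. One of 0.05 gave -0.26, 0.11 and 0.31. No filter gave 0 X-linked genes lower, 1 autosomal higher and 1 lower, and difference medians of 0.13 and 0.37. Only the libraries compared gave 0 X-linked lower and 0 autosomal either way, and against 0 to 8 h 9 X-linked higher, 0 lower, 27 autosomal higher and 29 lower. Without trend and robust fitting 16 X-linked genes were lower, 16 autosomal higher and 26 lower, 3 X-linked lower against 0 to 8 h, and 3 X-linked higher, 1 autosomal higher and 2 lower against 8 to 16 h. Median ratio scaling gave a Cast median of 0.

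The table gives no counts, so the depth behind each share is unknown.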

Other observations

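Other gene groups were read from lists drawn up after the changes had been seen, so they are given as values, without a test. A list of 25 genes known as Atf4 targets was mostly of amino acid and one-carbon metabolism, with Vldlr, Stc2, Ddit4 and Sesn2 outside it. All 25 had a change below 0 from 16 to 24 h. Their median was -0.73 after 0.75 from 8 to 16 h, against -0.02 and 0.03 over all genes. The list shares Asns, Psat1 and Sesn2 with the stress response list and holds Pck2, Aldh18a1 and Gpt2, so it partly repeats the falls given above. Of 12 chaperone and unfolded protein response genes of the endoplasmic reticulum, 11 had a change above 0, with a median of 0.28 after -0.30. The exception was Herpud1 at -1.12. The others ranged from Dnajb9 (0.008), Dnajc3 (0.10) and Xbp1 (0.12), which changed little, to Hspa5 at 0.80. Of 19 genes of cholesterol synthesis, 19 had a change above 0, with a median of 0.32 after -0.20, and 0.71 from 24 to 48 h. The neighbouring steps share the 16 h libraries.

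Interferon-inducible genes had a median of 0.40 over 12 members, with Irgm1 at 1.71 and Gbp2 at 1.57, and of 1.38 from 24 to 48 h. The hypoxia list of 14 genes had a median of -0.19 after 0.67, with 10 changes below 0 and 4 above, from the growth factor gene Vegfa at -1.69 to the prolyl hydroxylase gene Egln3 at 0.57.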
